A study of Mus musculus with 4 samples.

Results

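The replication profile was examined at 44 genes for developmental transcription factors, of the PAX, GATA, T-box, forkhead, LIM-homeodomain, NK, SOX, OTX, DLX, IRX and basic helix-loop-helix families, with Six2 and Wt1. They were taken from a list of genes held by Polycomb in stem cells, and all 44 were found among the 20661 autosomal protein-coding genes of the RefSeq table for GRCm38.p6. Each gene was represented by the 100 kb window whose midpoint was nearest the centre of its interval, and by the 21 windows, spaced 25 kb, with midpoints within 250 kb. All 21 windows had a value in every library at each of the 44 genes. The reference was the 94694 autosomal windows with a value in every library, of 109033 windows in the table.

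The study profiled mouse embryonic stem cells of the line 129S6/SvEvTac by TrAEL-seq, a method that ligates adaptors to exposed DNA 3′ ends, whose strand bias follows the direction of replication forks. Each genotype gave 2 libraries, wild type (WT) and Snf2h knockout (KO; SNF2KO in the labels), the knockout lacking Snf2h, the ATPase motor of the ISWI nucleosome remodellers. All cells were grown in serum and LIF on gelatin and came from duplicate cultures of each genotype. Whether the KO cells are a single clone, how the allele was made and the cells' passage are not given in the sources used here. Gene expression, Polycomb marks and the Snf2h level were not analysed here, so the genotype, the stem cell identity and the Polycomb state of the genes are those of the labels and of general knowledge.

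Polycomb repressive complexes silence the genes of later lineages in stem cells by marking histones over their CpG-rich promoters. Many of these promoters also carry a mark of activity and are called bivalent, a state from which the gene can be switched on or closed for good. Such genes often lie in regions with few other genes, surrounded by long conserved noncoding sequence. Polarity crosses 0 in one direction where forks diverge, at sites of initiation, and in the other where they converge, at sites of termination. The strand counted as positive in the deposited values is not given in the sources used here, so rises and falls of the profile are reported without naming which is which.

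To show the kind of promoter these genes carry, the 250 bases before a listed start were read from the RefSeq promoter table of GRCm38.p6. It held an entry for 30 of the 44 genes, and where a gene had several the first was taken. CG dinucleotides, which read the same on both strands, are in capitals. Tbx20, a cardiac T-box factor whose slope differed most between the genotypes, had 22 of them (chr9:24774304-24774553, minus strand). Isl1, a LIM-homeodomain factor of motor neurons and cardiac progenitors, had the most of the 30, 33 (chr13:116309689-116309938, minus strand). Lhx9, a LIM-homeodomain factor of the gonad and limb, had the fewest, 4 (chr1:138842445-138842694, minus strand). The Lhx9 stretch lies inside the gene interval, before an internal start, so its low count is that of this entry and not of the outermost start. The Gata3 entry likewise lies inside its gene.
Tbx20: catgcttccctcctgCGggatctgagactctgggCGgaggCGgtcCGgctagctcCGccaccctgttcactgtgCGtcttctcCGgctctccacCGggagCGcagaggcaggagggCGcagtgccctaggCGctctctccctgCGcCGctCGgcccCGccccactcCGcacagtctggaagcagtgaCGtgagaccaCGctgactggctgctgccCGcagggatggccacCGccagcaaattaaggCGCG
Isl1: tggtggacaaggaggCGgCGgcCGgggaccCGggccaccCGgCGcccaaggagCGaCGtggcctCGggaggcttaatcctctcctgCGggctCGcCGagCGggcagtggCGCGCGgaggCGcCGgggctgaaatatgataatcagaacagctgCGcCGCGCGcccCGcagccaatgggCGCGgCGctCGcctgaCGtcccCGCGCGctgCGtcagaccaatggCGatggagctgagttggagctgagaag
Lhx9: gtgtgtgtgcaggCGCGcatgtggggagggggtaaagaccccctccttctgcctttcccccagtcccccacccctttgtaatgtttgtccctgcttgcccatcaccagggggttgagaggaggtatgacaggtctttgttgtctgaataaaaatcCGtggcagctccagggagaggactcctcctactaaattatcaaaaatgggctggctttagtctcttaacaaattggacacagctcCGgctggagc

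The median number of CG in this window was 17 over the 30 genes, against 10 over 16456 protein-coding promoters and 6 over all 27025 promoters of the table. At least 10 CG were present in 20 of 30 (66.7%), against 51.8% of protein-coding and 38.2% of all promoters; at least 1 was present in all 30 and in 91.7% of all promoters. Median GC content was 61.4% over the genes, 55.6% over protein-coding promoters and 52% over the whole table. A count of CG describes these letters and not a Polycomb mark.

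Polarity ran from -50 to 50 points. Its SD over autosomal windows was 14.6 and 12.8 points in WT replicates 1 and 2, and 19.4 and 14.5 points in KO replicates 1 and 2, so that KO replicate 1 stood apart by its wider swings. Values are therefore also given standardised, that is, divided by this SD of the library. The table gives no read counts and depth is unknown; from 7641 to 8249 windows of a library had no value. For WT replicate 2, the label and the column header give different index sequences. In the values that follow, 4 numbers in a row are WT replicates 1 and 2 and then KO replicates 1 and 2.

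At the gene centres the 44 genes showed imbalances near those of other windows. Their median absolute polarity was 12.1 and 10.2 points in the WT libraries, and 18.9 and 12.0 points in the KO libraries, against 11.1, 9.64, 14.9 and 10.7 points over all autosomal windows and 10.1, 8.97, 14.0 and 10.0 points over protein-coding genes. Ranked among the windows of the same library, the median gene stood at percentile 53.8, 52.6, 61.1 and 55.3. The sign was as often one way as the other: polarity was positive in every library at 17 genes, negative in every library at 18 and of mixed sign at 9. Single genes ranged from 0.342 to 24.9 points in WT replicate 1 and from 1.13 to 35.2 points in KO replicate 1.

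The strongest mean absolute polarity in WT was at Sox17, an endoderm and endothelial factor, with -22.0 and -26.4 points in the WT libraries, and -29.7 and -22.4 points in the KO libraries. Tbx5, required for the heart and forelimb, had 24.6, 19.4, 35.2 and 23.8 points. Pax1, a factor of the sclerotome and thymus, had 24.9, 17.6, 34.7 and 19.5 points. Sox17 kept a negative sign across the windows within 250 kb in every library, whereas the profile at Tbx5 peaked near the gene and was negative at both edges. The genotypes overlapped at each of the 3 genes.

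Pax3, a neural crest and muscle progenitor factor, had -23.9 and -17.8 points in the WT libraries, and -32.5 and -24.2 points in the KO libraries, where both KO values lay below both WT values. Sox1, a neural progenitor factor, had -23.8, -16.4, -31.1 and -23.8 points, with overlap of the genotypes by a small margin. The Sox genes had the highest median WT absolute polarity of the families, 20.1 points. At Sox1, Sox9 and Sox17, absolute polarity ran from 18.9 to 23.8 points in WT replicate 1 and from 16.4 to 26.4 points in WT replicate 2. In KO replicate 1 it ran from 27.4 to 31.1 points and in KO replicate 2 from 11.3 to 23.8 points.

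Other genes lay close to 0, where both strands were about equally represented. Foxd3, a forkhead factor of pluripotent cells and neural crest, had 0.482 and -0.836 points in the WT libraries, and 1.13 and -2.76 points in the KO libraries. Dlx5, of the branchial arches and bone, had 1.62, 1.14, 6.67 and 2.55 points. Nkx2-1, of the lung, thyroid and forebrain, had -2.67, -2.90, 5.56 and 1.75 points. The genotypes overlapped at Foxd3, at Dlx5 the KO libraries were the 2 higher, and Nkx2-1 was negative in both WT libraries and positive in both KO libraries.

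Dlx1, a factor of forebrain interneurons, had 1.52 and -0.459 points in the WT libraries, and 8.56 and 8.67 points in the KO libraries. Irx3, an Iroquois factor of neural tube and heart, had 2.72, -0.276, 8.16 and 13.8 points. At both genes the KO libraries lay above the WT libraries. Absolute polarity below 5 points in every library was found at 3 of the 44 genes.

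**Figure D1:**
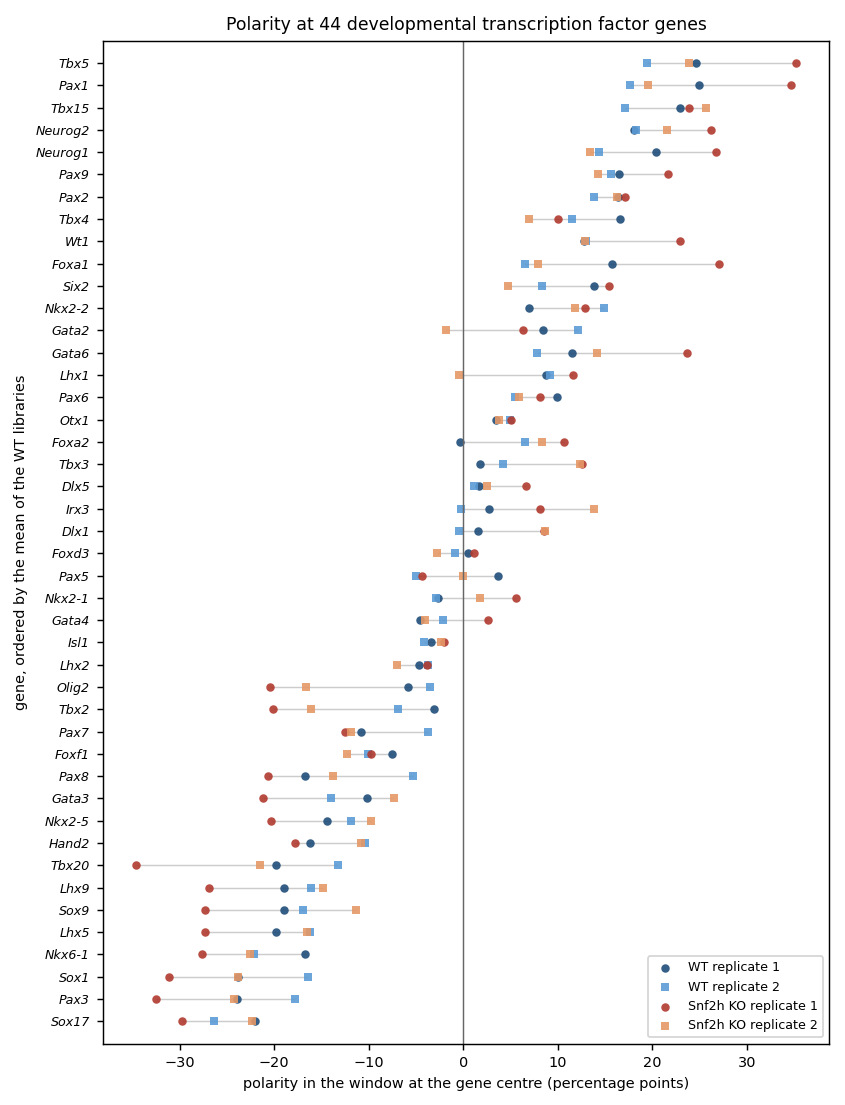
Polarity (points) in the window at the centre of each of the 44 genes, 1 marker per library, with genes ordered by their WT mean; the vertical line marks 0. The genes spread on both sides of 0, from Sox17 at the negative end to Tbx5 at the positive end, with 17 positive and 18 negative in every library.

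Local slope separated these genes from other windows more than polarity itself did. The slope, a least-squares line through the 21 windows around a gene, was positive at 32, 31, 33 and 31 of the 44 genes (72.7%, 70.5%, 75% and 70.5%). Of protein-coding genes 63.8%, 63.5%, 62.5% and 62.5% had a positive slope, and of all windows 46.0%, 46.2%, 44.4% and 45.2%. The median slope over the 44 genes was 3.94, 3.21, 5.79 and 4.34 points per 100 kb, against 1.82, 1.55, 2.34 and 1.65 over protein-coding genes and -0.499, -0.421, -0.882 and -0.552 over all windows. The slope was positive in all 4 libraries at 28 genes, negative in all 4 at 7 and of mixed sign at 9.

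Averaged over the 44 genes, the profile formed a rise centred on the genes. Mean polarity in WT replicate 1 was -9.94 points at 100 kb to the left of the centre, -0.0293 points at the centre and 7.42 points at 100 kb to the right. The same positions gave -8.31, -0.197 and 5.84 points in WT replicate 2, -11.8, -0.135 and 9.43 points in KO replicate 1, and -8.24, -0.550 and 8.49 points in KO replicate 2. Farther out the mean moved back towards 0, and at 250 kb it was -5.75 points on the left and 2.74 points on the right in WT replicate 1. Over all protein-coding genes the mean at 250 kb was -3.29 and 3.14 points in that library, on a flatter curve.

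**Figure D2:**
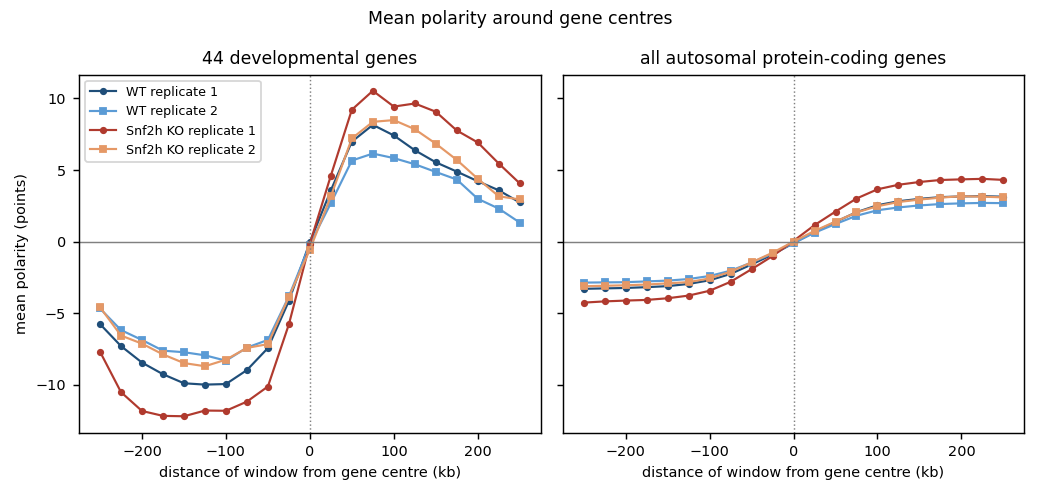
Mean polarity (points) against the distance of the window from the gene centre (kb), with 1 line per library, for the 44 developmental genes on the left and all autosomal protein-coding genes on the right. In every library the 44 genes show a steeper rise through the centre, from -9.94 to 7.42 points between 100 kb left and right in WT replicate 1, and a return towards 0 at the edges.

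Segments were then called along each chromosome, as stretches of a 5-window running mean between turning points that differ by at least 1 SD of the library. The window of the gene lay in a rising segment at 32 and 29 of the 44 genes in WT and at 31 and 28 in KO (72.7%, 65.9%, 70.5% and 63.6%). It lay in a falling segment at 4, 6, 6 and 4 (9.09%, 13.6%, 13.6% and 9.09%). Falling shares were 25.2%, 24.8%, 25.4% and 23.8% of protein-coding genes and 36.6%, 35.2%, 34.8% and 32.0% of all windows. Of protein-coding genes 44.2%, 44.6%, 44.1% and 43.7% lay in rising segments, and of all windows 28.6%, 28.7%, 27.1% and 27.6%. Rising in all 4 libraries were 24 genes (54.5%), against 30.7% of protein-coding genes and 17.4% of windows; falling in all 4 were 3 genes (6.82%), against 13.9% and 17.5%. The list was chosen with these data known, so the shares are a description and carry no test.

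**Figure D3:**
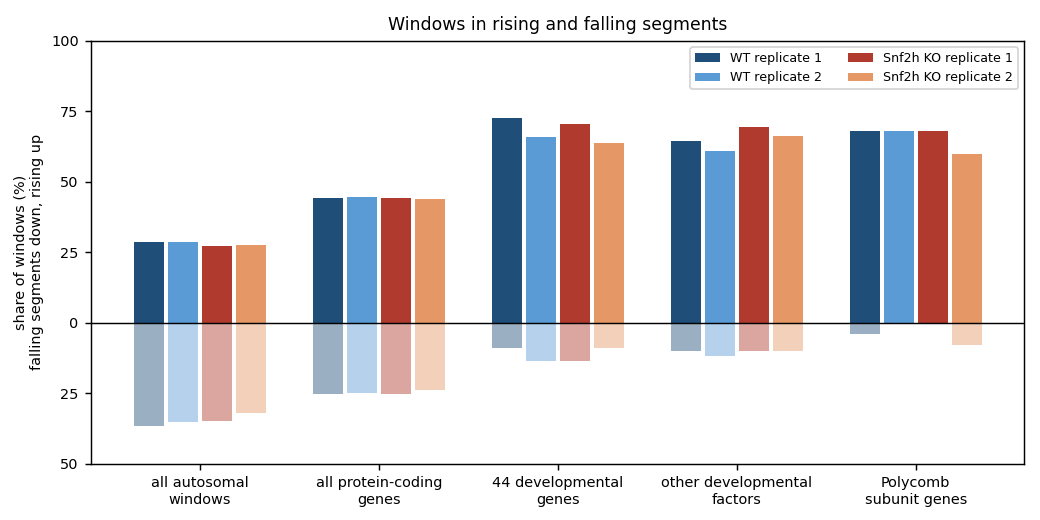
Share of windows (%) in rising segments (upward bars) and falling segments (downward, paler bars) in each library, for all autosomal windows, all protein-coding genes, the 44 genes, 59 other developmental factors and 25 Polycomb subunit genes. The 44 genes reach 63.6% to 72.7% rising, the other developmental factors 61.0% to 69.5% and the Polycomb subunits 60.0% to 68.0%, above the 43.7% to 44.6% of protein-coding genes.

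The genes also lay closer to the midpoints of rises than other genes and windows did, which follows in part from their larger share in rising segments. Along the rises that held them they stood anywhere from 3.11% (Lhx5) to 97.4% (Tbx5) of the length. On the mean profile of the 4 libraries, 2467 rising and 2449 falling segments were called, and 30 of the 44 gene centres lay within 27 rising segments. The midpoint of the nearest rising segment was at a median of 63.4 kb from the 44 gene centres, 163.1 kb from those of protein-coding genes and 262.5 kb from windows spaced 100 kb. It was within 100 kb at 26 genes (59.1%), against 34.0% and 22.1%. The 27 segments rose by a median of 37.6, 32.1, 47.0 and 36.8 points, where all rising segments rose by 32.2, 28.2, 41.6 and 30.7 points; both sets had a median length of 225 kb. The other 14 centres were outside these rising segments, and 4 of them, at Pax2, Pax5, Nkx2-5 and Olig2, lay in falling segments.

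The T-box genes held the most positive fitted slope and were rising in all libraries at 5 of 6. Tbx3 (chr5:119670534-119684724), a repressor of the limb, mammary gland and heart that also acts in stem cells, had the most positive slope of the 44 genes, 13.1 and 11.8 points per 100 kb in the WT libraries, and 17.5 and 12.3 in the KO libraries. That placed it at percentile 99.4, 99.6, 99.4 and 99.0 of all windows. Across its 500 kb the profile went from -27.9 to 26.7 points in WT replicate 1 and from -34.2 to 37.2 points in KO replicate 1. Tbx15 (chr3:99240348-99354260), of the skeleton and skin, had slopes of 11.1, 9.12, 13.9 and 9.36 points per 100 kb, each above percentile 95 of its library.

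The 4 forkhead genes lay in rising segments in every library. Foxd3 (chr4:99656299-99658671) had slopes of 10.6, 8.07, 12.0 and 7.67 points per 100 kb around a centre near 0, and the profile ran from -27.0 to 24.9 points in WT replicate 1 within 250 kb. Foxf1, of the lateral mesoderm, lay in a short rise of 150 kb but had slopes over the whole region of -0.362, -1.89, 0.306 and -0.359 points per 100 kb. The remaining forkhead genes Foxa1 and Foxa2, pioneer factors of the endoderm, had positive slopes throughout.

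Of the 5 LIM-homeodomain genes 4 were rising in all libraries. Lhx9 (chr1:138825186-138848839) had the second most positive slope, 12.8, 10.3, 14.2 and 9.56 points per 100 kb, and lay on the segment with the largest WT rise among those holding members, 52.8 and 49.4 points in the WT libraries, and 58.5 and 38.4 points in the KO libraries. Isl1, the gene with the most CG, had 10.1, 6.80, 11.3 and 7.35 points per 100 kb with a centre between -4.18 and -2.03 points. Lhx1, of the kidney and head organiser, was the exception, with slopes of -2.68 and -3.07 points per 100 kb in the WT libraries, and -2.87 and -3.22 in the KO libraries.

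The GATA genes, which direct blood, trophectoderm, heart and endoderm, were unlike each other. Gata3 (chr2:9857078-9887953) had slopes of 10.5 and 8.10 points per 100 kb in the WT libraries, and 15.3 and 11.8 in the KO libraries, among the steepest. Gata4 (chr14:63198914-63271712) had -3.10, -1.82, 2.74 and 0.228, negative in both WT libraries and positive in both KO libraries. Gata6 had -1.05, 0.547, -2.96 and -0.849 points per 100 kb, with no common direction.

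The Pax genes and the NK genes were mixed families. Rising in all libraries were 2 of 8 Pax genes (Pax3 and Pax6) and 1 of 4 NK genes (Nkx6-1). Pax5 (chr4:44524748-44710694), a B-cell factor and the longest of the 44 genes at 185.9 kb, had slopes of -6.05, -5.71, -7.52 and -2.59 points per 100 kb. Pax2, of the kidney and optic stalk, and Nkx2-5, of the heart, lay in falling segments in all libraries, although the slope over the whole region was between -1.37 and 1.94 points per 100 kb at Pax2 and between -1.48 and 0.156 at Nkx2-5.

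Olig2 (chr16:91225550-91228677), a factor of oligodendrocytes and motor neurons, was the third gene falling in all libraries. Its slopes were -7.09 and -4.24 points per 100 kb in the WT libraries, and -6.67 and -5.87 in the KO libraries. The other 3 basic helix-loop-helix genes, Neurog1 and Neurog2 of sensory and cortical neurons and Hand2 of the heart and limb, had positive slopes in every library. Sox17 and Wt1, the latter of the kidney and gonad, lay in neither kind of segment in any library.

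**Figure D4:**
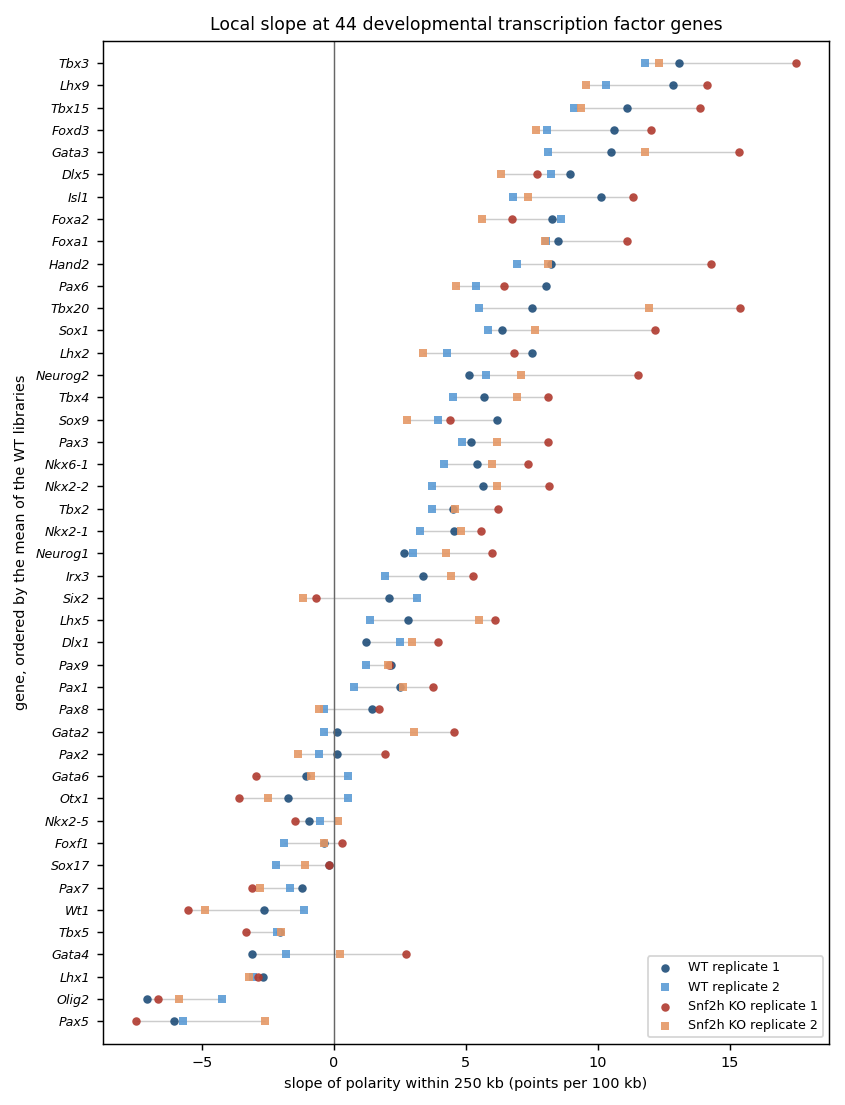
Slope of polarity within 250 kb of the gene centre (points per 100 kb) for each of the 44 genes, 1 marker per library joined by a grey line, ordered by the WT mean, with a vertical line at 0. Slopes are positive in every library at 28 genes, from Tbx3 at the top, and negative in every library at 7, with Pax5 and Olig2 lowest.

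In 4 pairs of members the centres lay within 500 kb, and these genes share windows. Tbx2 and Tbx4, factors of the limb and lung, lay 64.0 kb apart on the same rise of 29.6, 24.9, 32.6 and 28.2 points, with Tbx2 at -3.10, -6.87, -20.1 and -16.1 points and Tbx4 at 16.6, 11.5, 10.0 and 6.91 points. Tbx3 and Tbx5, 163.2 kb apart, lay at the middle and the upper end of the same rise. Pax9 and Nkx2-1, 167.8 kb apart, likewise shared a rise, of 25.6, 15.3, 27.3 and 32.7 points.
Pax1 and Nkx2-2, a ventral neural tube and islet factor, were 182.5 kb apart. Pax1 lay on a rise of 22.6, 16.5, 23.6 and 6.66 points and Nkx2-2 outside it. The pairs thus differed in sign or size of polarity while sharing a region, and the 44 genes are fewer independent places than their number.

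The neighbourhoods of these genes held few others. Within 250 kb of the centre lay a median of 2 other protein-coding genes, against 8 around protein-coding genes at large, and 38 of the 44 had at most 5, against 33.8%. No other protein-coding gene lay within 250 kb at 5 genes: Gata6, Foxa2, Isl1, Sox9 and Irx3. Across the 44 genes the number of neighbours and the WT mean slope had a Pearson r of -0.296 and a Spearman rho of -0.218, given as a description because the genes share libraries and in places windows. The number of neighbours and the WT absolute polarity had r = 0.078 and rho = 0.075.

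In 2 other lists of genes, too, most lay in rising segments. Of 59 other developmental transcription factors, 64.4%, 61.0%, 69.5% and 66.1% lay in rising segments, and their median slope was 2.91, 2.68, 4.07 and 2.90 points per 100 kb. Their median absolute polarity was lower, 6.70 and 7.01 points in the WT libraries, and 12.8 and 10.1 points in the KO libraries. The lowest WT mean slopes among them were at Nkx6-2, a glial and neuronal factor, with -5.90, -5.07, -8.57 and -5.89 points per 100 kb, and at Olig1, of oligodendrocytes, with -6.23, -3.57, -5.17 and -4.07.
Of 25 genes for Polycomb subunits, 68.0%, 68.0%, 68.0% and 60.0% lay in rising segments, and 23 of 25 had a positive slope in each library. The steepest were Eed, the subunit that reads the histone mark laid down by Polycomb, with 15.6, 12.3, 20.3 and 15.1 points per 100 kb, and Aebp2, an accessory subunit, with 13.8, 11.8, 16.3 and 8.73. No difference between the lists was tested. Shared windows were looked for only within the main list of developmental genes, so genes of these other lists may share windows with it. Whether Olig1 shares windows with Olig2 was not checked, so its falling slope may not be a separate observation.

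The comparison of the genotypes asked whether loss of Snf2h changed polarity or slope at these genes. The 44 genes were ordered alike in both genotypes: WT and KO means correlated with r = 0.955 (rho = 0.953) for polarity and r = 0.920 (rho = 0.919) for slope over the 44 genes, as a description. Median absolute polarity was 11.2 ± 1.34 points over the WT libraries and 15.5 ± 4.87 over the KO libraries (SD, n = 2). They differed by 4.32 points beside a pooled replicate SD of 3.57, and the libraries overlapped. Standardised, the medians were 0.828, 0.797, 0.974 and 0.830 SD, a difference of 0.0893 SD in which both KO values were the higher, KO replicate 2 by a small margin. Over all windows the medians were 10.4 ± 1.04 and 12.8 ± 3.00 points (SD, n = 2). The median absolute slope was 4.28 ± 0.792 and 5.39 ± 1.11 points per 100 kb (SD, n = 2). The difference, 1.11, was 0.00724 SD per 100 kb once each library was standardised. Without KO replicate 1 the differences were 0.872 points and 0.328 points per 100 kb. On average 69.3% ± 4.82 of the genes lay in rising segments in the WT libraries, and 67.0% ± 4.82 in the KO libraries (SD, n = 2).

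For polarity, none of the 44 genes passed limma's test at an adjusted p of 0.05, where 0.076% of all windows did (72 of 94694). At an unadjusted p under 0.05 there were 5 genes (11.4%), beside 12.1% of windows. The same test on standardised values passed 0 genes, beside 0.696% of windows, and 6 genes (13.6%) beside 14.5% of windows at an unadjusted p under 0.05. The genotypes did not overlap in polarity at 18 genes (40.9%), beside 44.6% of windows; KO was higher at 10 (22.2% of windows) and lower at 8 (22.5% of windows). These shares were near those of the windows at large.

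The smallest adjusted p was at Olig2, with -5.84 and -3.47 points in the WT libraries, and -20.4 and -16.7 points in the KO libraries. KO minus WT was -13.9 points (SE 4.51; limma adjusted p = 0.251). Tbx2 followed, with -13.1 points (SE 4.55; limma adjusted p = 0.28). At both genes KO was lower in 2 of 2 libraries, and neither passed the threshold. Tbx3, with 1.73 and 4.20 points in the WT libraries, and 12.6 and 12.3 points in the KO libraries, and Irx3 went the other way, by 9.48 points (SE 4.47; limma adjusted p = 0.41) and 9.76 points (SE 4.58; limma adjusted p = 0.409).
Gata2 had 8.39, 12.1, 6.31 and -1.83 points, a difference of -8.02 (SE 4.69; limma adjusted p = 0.5) whose sign turned, to 4.77, when only windows spaced 100 kb were used. It was -12.1 points without KO replicate 1 and -3.95 points without KO replicate 2.
Without KO replicate 2, the test passed 8 of the 44 genes and 19.8% of windows, and without KO replicate 1 it passed 0 genes and 5.69% of windows. Without WT replicate 1 or WT replicate 2 it passed 0 genes, beside 0.0306% and 0.0317% of windows.

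For slope on the deposited scale, 0 of the 44 genes passed, beside 0.0117% of windows (11 of 94109), and 9 (20.5%) had an unadjusted p under 0.05, beside 14.3% of windows. Without KO replicate 2 the test passed 17 genes (38.6%), beside 26.1% of windows, and without KO replicate 1 it passed 2 (4.55%), beside 8.57% of windows. With WT replicate 1 or WT replicate 2 left out it passed 0 genes, beside 0.0765% and 0.0669% of windows. The genotypes did not overlap at 24 genes (54.5%), beside 46.8% of windows. The slope was higher in KO at 18 of these, where 22.3% of all windows were, and lower at 6, where 24.5% of windows were. Slopes were positive more often at the 44 genes than over all windows, so the shares by direction are not like for like. After each library was divided by its SD, the genotypes did not overlap at 18 genes higher in KO, beside 26.1% of windows, and at 11 lower, beside 25.4% of windows.

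After each library was standardised, 5 of the 44 genes passed (11.4%), beside 5.41% of windows. The slope was higher in KO at Tbx20, Gata2 and Gata4, where 2.38% of windows were, and lower at Foxa2 and Six2, where 3.02% of windows were. At an unadjusted p under 0.05 there were 12 genes (27.3%), beside 21.3% of windows. With a library left out the calls changed: Tbx20 alone passed without WT replicate 1 (beside 1.51% of windows), and no gene passed without WT replicate 2 (1.07% of windows), with 11 genes at an unadjusted p under 0.05 beside 12.7% of windows. Without KO replicate 1 there were 6 calls (13.6%, beside 12.9% of windows), 4 of them among these 5, and without KO replicate 2 there were 4 (9.09%, beside 5.54% of windows), all among these 5. A genotype left with 1 library is assumed to vary like the other, whose pair supplies the whole spread.

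Tbx20 (chr9:24720812-24774303, minus strand), whose promoter held 22 CG, lay on a rise that was larger in KO. The rise measured 44.6 and 28.5 points in the WT libraries, and 71.9 and 55.4 points in the KO libraries, and the slope was 7.50 and 5.49 points per 100 kb in the WT libraries, and 15.4 and 11.9 in the KO libraries. Neither measure overlapped between the genotypes, and for the size of the rise the gap between them was smaller than the spread within each. The slope difference was 7.19 points per 100 kb (SE 1.45, limma adjusted p = 0.126), and on the standardised scale 0.34 SD per 100 kb (SE 0.0645, limma adjusted p = 0.00597). On the deposited scale the call changed with the fit. The limma adjusted p was 1.94e-06 with the replicate number as a block and 0.0455 with trend and robust options.

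Gata2 (chr6:88193891-88207032, plus strand), a factor of blood stem cells, had a fitted slope near 0 in WT and a positive one in KO. The slopes were 0.133 and -0.391 points per 100 kb in the WT libraries, and 4.57 and 3.04 in the KO libraries, on a rise of 16.7, 16.6, 39.4 and 30.5 points. The standardised difference was 0.23 SD per 100 kb (SE 0.0632; limma adjusted p = 0.0391). Gata4, a heart and endoderm factor whose values stand above, had 0.26 SD per 100 kb (SE 0.0671; limma adjusted p = 0.0345). The highest polarity within 250 kb of the centre of Gata2 was 13.0 and 14.8 points in WT replicates 1 and 2, and 26.1 and 24.2 points in KO replicates 1 and 2.

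Six2 (chr17:85662736-85688254, minus strand), a factor of nephron progenitors, had slopes of 2.09 and 3.15 points per 100 kb in the WT libraries, and -0.67 and -1.16 in the KO libraries, positive in both WT and negative in both KO libraries. The short rise that holds Six2, called on the mean profile, measured 32.4, 22.7, 28.9 and 9.11 points and overlapped between the genotypes. In KO replicate 2 it was smaller than the SD of that library, 14.5 points, which a rise called in a single library must reach. The standardised difference was -0.25 SD per 100 kb (SE 0.0654; limma adjusted p = 0.033). Foxa2 (chr2:148042877-148046969, minus strand) had 8.26 and 8.62 points per 100 kb in the WT libraries, and 6.75 and 5.60 in the KO libraries, with a standardised difference of -0.25 SD per 100 kb (SE 0.0655; limma adjusted p = 0.0327). The rise holding Foxa2 measured 43.8, 42.3, 46.4 and 38.1 points and overlapped between the genotypes, whereas the slope over the whole region did not. The size of these differences moved with the reach of the slope. On the deposited scale and within 250 kb it was -3.54 points per 100 kb at Six2, 3.93 at Gata2, 3.94 at Gata4, 7.19 at Tbx20 and -2.27 at Foxa2. Within 150 kb, in the same order, it was -6.38, 9.52, 4.62, 10.7 and -2.94 (limma adjusted p = 0.241, 0.11, 0.444, 0.15 and 0.625). Within 400 kb it was -0.995, 1.86, 1.84, 4.85 and -1.66 (limma adjusted p = 0.507, 0.342, 0.306, 0.104 and 0.313). The signs held at each reach, and none of the 5 genes passed in these fits. On the same scale within 250 kb, Tbx20, Gata2, Gata4 and Six2 passed with the replicate number as a block, beside 8.18% of windows. The same genes passed with limma's trend and robust options, beside 4.26% of windows, and Foxa2 passed in neither.

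**Figure D5:**
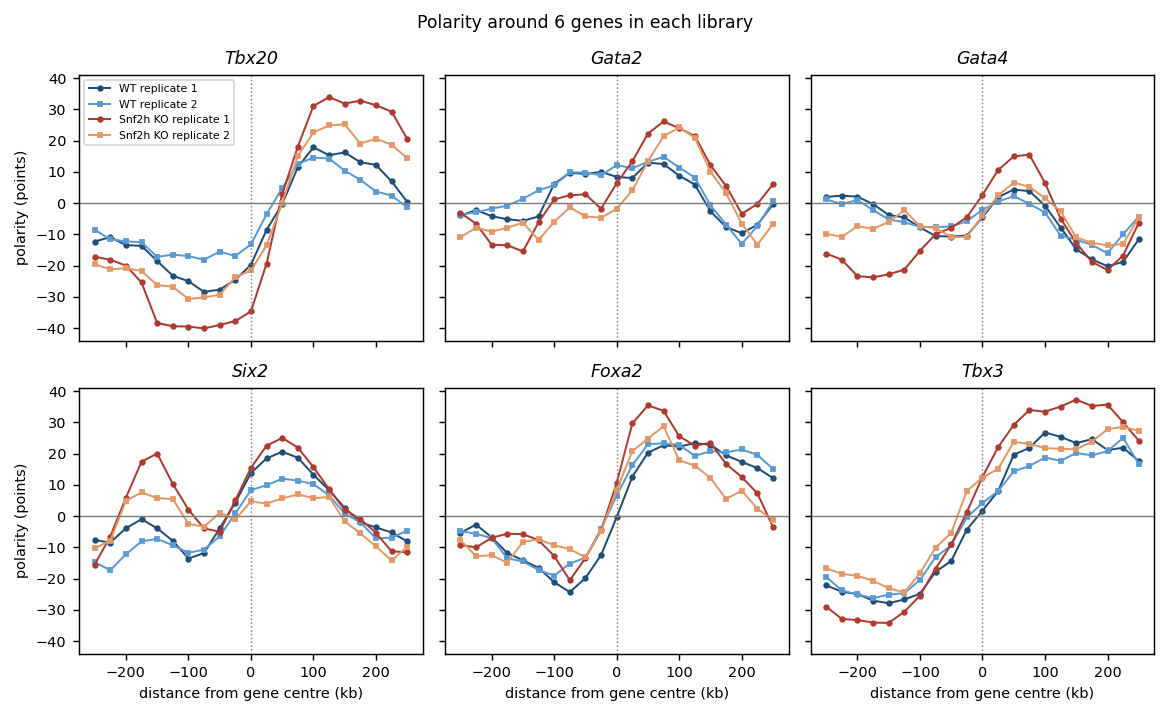
Polarity (points) against distance from the gene centre (kb) in each library around Tbx20, Gata2, Gata4, Six2, Foxa2, which passed the standardised slope test, and Tbx3, which has the steepest WT slope. The KO lines swing wider at Tbx20, where the rise is 71.9 and 55.4 points against 44.6 and 28.5 in WT, and at Tbx3 all 4 lines cross 0 close to the gene.

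The largest slope differences on the deposited scale without overlap were at Tbx20, Gata3, Gata4, Gata2 and Neurog2, all higher in KO. Gata3 differed by 4.27 points per 100 kb (SE 1.49; limma adjusted p = 0.255) and Neurog2, with 5.11 and 5.75 in WT and 11.5 and 7.11 in KO, by 3.88 (SE 1.51; limma adjusted p = 0.293). Without KO replicate 1 the differences were 2.5 at Gata3 and 1.68 at Neurog2, and without KO replicate 2 that at Neurog2 was 6.09 points per 100 kb. After standardising, neither passed (limma adjusted p = 0.269 and 0.23). With the replicate number as a block in the fit on the deposited scale, 9 of the 44 genes passed, 8 higher and 1 lower in KO, beside 8.18% of windows. Gata3 and Neurog2 were among them (limma adjusted p = 0.0122 and 0.0259).

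In the other lists the standardised slope test passed 2 of 58 developmental factors with a slope (3.45%) and 0 of 25 Polycomb subunits, beside 5.41% of windows. At an unadjusted p under 0.05 there were 16 developmental factors (27.6%) and 5 Polycomb subunits (20%), beside 21.3% of windows. Lhx6, of forebrain interneurons, had 6.92 and 5.24 points per 100 kb in the WT libraries, and 13.9 and 10.2 in the KO libraries (limma adjusted p = 0.0208), and Irx4, of the heart ventricle, had 7.65 and 7.37 in WT and 3.73 and 3.75 in KO (limma adjusted p = 0.00771). The former was steeper and the latter shallower in both KO libraries.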

How the data were processed

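The deposited table holds a score, the authors' strand imbalance (polarity, -50 to 50 points), per 100 kb window every 25 kb and library. Per the file headers, reads were aligned to GRCm38 and deduplicated; the submitters' processing notes name Trim Galore 0.6.5 and Bowtie2 2.4.1. The program behind the values and its read minimum are not given in the sources used here, and the table gives no read counts, so depth is unknown and no intervals were computed. Autosomal windows with a value in all 4 libraries were used. Slopes were least-squares lines over windows within 250 kb, with at least 70% of them present. Genotypes were compared with limma 3.58.1 in R 4.3.3 (lmFit, eBayes; Benjamini-Hochberg over 94694 windows for polarity and 94109 for slope; threshold 0.05), checked on simulated data. The simulated shifts were 30 points for polarity and 10 points per 100 kb for slope, with the same noise SD in every library. The check therefore gives no power for the smaller differences named here. Replicates are duplicate cultures per the series' design, and p-values measure the spread between these libraries. Nothing in the labels names a batch within the single lane.

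Gene intervals and, for 30 genes, strand came from RefSeq tables; where a symbol had several promoter entries, the first was taken. The genes and lists were chosen with earlier results of these data known. Genes were named as the 5 highest and 5 lowest in WT absolute polarity, the 5 most positive and 5 most negative WT slopes, every gene past the threshold, the 5 largest differences without overlap in standardised polarity and in slope, and genes within 500 kb of another; promoters and a few further genes were picked after their values were seen. Alternatives were the replicate block, standardising, limma's trend and robust options, windows spaced 100 kb, a threshold of 0.1, an atanh scale, slopes within 150 and 400 kb, other segment settings, the gene start, 1 gene per group of neighbours and omission of each library. Omission of libraries and the block for segments or standardised slopes were added after seeing the data. Python 3.11.15, numpy 2.4.6, pandas 2.3.3 and matplotlib 3.10.9 were used.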

Additional observations from a re-analysis of the deposited data

How the results depend on the processing

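Of the alternatives tried for counts and medians, 51 stayed within 1.5 times the count or within the replicate SD and 36 moved; of those for single genes, 101 kept direction and side of the threshold, 25 passed it and 1 reversed. Windows past the threshold for polarity, 72, became 2529 with the replicate block, 659 after standardising, 1117 with trend and robust options, 13 of 23672 at 100 kb spacing (0.0549%, beside 0.076%), 181 at an adjusted p under 0.1 and 0 on the atanh scale (10484 at an unadjusted p under 0.05), and from 29 to 18703 with a library left out; genes among the 44 went from 0 to 8 and stayed at 0 otherwise. For slope, 11 windows became 7702 with the block, 5088 after standardising, 4005 with trend and robust options, 2 of 23530 at 100 kb spacing, 84 at an adjusted p under 0.1, and 22 and 23 for slopes within 150 and 400 kb, and from 63 to 24560 with a library left out. The 44 genes gave 9 with the block, 5 after standardising, 4 with trend and robust options and 0 to 17 with a library left out (2, or 4.55%, without KO replicate 1, beside 8.57% of windows; 17, or 38.6%, without KO replicate 2, beside 26.1%). Standardised slope calls ran from 0 to 6 genes and 1006 to 12146 windows with a library left out; with the block there were 6 genes (13.6%), beside 8.05% of windows (7573). The cause of these changes was not tested.

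The KO minus WT difference in median absolute slope, 1.11, was 0.00724 after standardising. The difference in median percentile, 5.02, was 9.04 at the gene start (moved for the 30 genes with a known strand), 8.58 with 1 gene per group and 2.03 at 100 kb spacing. Leaving out a library gave 0.872 to 7.76 points for absolute polarity, 0.328 to 1.90 for absolute slope and 2.11 to 7.94 for the percentile. The Gata2 polarity difference, -8.02 points, was 4.77 points at 100 kb spacing, where another window stands for the gene. The genotypes share replicate numbers; deviations of same-numbered libraries correlated at 0.239 for polarity and 0.329 for slope, and at 0.0151 and 0.00878 after standardising, and with 2 pairs the numbers were not taken as pairing. Depth is unknown.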

Other observations

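Polarity was also set against the strand of the gene, with no test. Of the 30 genes with a strand in the promoter table, polarity had the sign of the gene's strand at 19 and 18 in WT replicates 1 and 2 and at 18 and 16 in KO replicates 1 and 2, with 14 on that side in all libraries and 8 on the other side in all. Over 16094 protein-coding genes the share was 51.4%, 51.0%, 51.2% and 50.2% in the same order. Because the positive strand of the values is not given in the sources used here, the side itself has no reading in terms of fork direction.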
